A study of Homo sapiens with 6 samples.

Results

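The replication-dependent histone genes of the human genome lie in a large cluster on chromosome 6 and a smaller one on chromosome 1, and their chromatin accessibility was compared between A375 cells carrying an empty vector and A375 cells overexpressing HMGB2 (HMGB2OE). The set was taken from gene names and positions alone: GENCODE release 44 protein-coding genes of the families H1, H2A (H2AC), H2B (H2BC), H3 (H3C) and H4 (H4C) inside the 2 clusters. It held 64 of 20046 protein-coding genes, 53 on chromosome 6 and 11 on chromosome 1, with 6 H1, 15 H2A, 16 H2B, 13 H3 and 14 H4 genes. On hg38 the chromosome 6 genes ran from H1-1 to H2BC17 (chr6:26017032-27893891) and the chromosome 1 genes from H2BC18 to H2AC21 (chr1:149782689-149887965). A peak was counted as a histone peak when its centre lay in one of these genes, or lay between genes with one of them as the nearest protein-coding start site. This gave 160 of the 152800 peaks of the atlas. Counts were high enough to test 154 of them, and the 6 left out, all beside H4C14 or H4C15, held between 0 and 10 reads in each library.

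A375 is a human melanoma cell line, and the study asked how HMGB2, a chromatin protein that bends DNA, changes which DNA is open. The assay was ATAC-seq, in which the Tn5 transposase cuts and tags accessible DNA, and the value of a peak is the number of reads in it. There were 3 empty vector libraries and 3 HMGB2OE libraries, with no drug treatment named in the labels. The overexpressing line was made by lentiviral transduction, and the promoter that drives its HMGB2 insert is not given in the sources used here. The study states that its replicates were technical and that the experiment was not repeated, so every p-value here measures only the spread between libraries and not between separate experiments.

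Between 26910189 and 45645294 reads per library fell in peaks, and TMM scaling factors lay between 0.975 and 1.02. Of 7 melanocyte lineage genes, SOX10 and MITF had a peak at the start site (empty vector means of 859 and 1325 normalised reads), while PMEL, MLANA, TYR, DCT and TYRP1 had none. None of 7 genes that mark other cell types (PTPRC, CD3E, ALB, EPCAM, KRT5, COL3A1 and PECAM1) had one. The promoter peak of HMGB2 itself differed by −0.01 on the log2 scale (edgeR adjusted p = 0.959), whereas both peaks in its gene body were higher in HMGB2OE, by 1.16 (adjusted p = 0.0082) and 1.67 (adjusted p = 0.0001). Whether reads of the inserted copy enter those gene body peaks was not tested.

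Replication-dependent histone genes supply the proteins that package newly made DNA and are transcribed mainly in S phase. H2A, H2B, H3 and H4 form the nucleosome core, and H1 binds the linker DNA where it enters and leaves the core. The genes have no introns in their main form, and their messages end in a conserved stem-loop bound by SLBP in place of a poly(A) tail. Transcription is driven by NPAT, a substrate of the cyclin E and CDK2 kinase, together with factors that read family-specific promoter elements: POU2F1 at the octamer of H2B genes and HINFP at the H4 element.

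These elements can be read in the sequence. H2A and H2B genes often stand head to head, and 10 such pairs shared a single promoter peak, with 193 to 250 bases between the start sites. The regions between the start sites are shown for the pair with the most accessible promoter, H2BC21 and H2AC20 (chr1:149886683-149886917), for the next most accessible pair, H2BC11 and H2AC11 (chr6:27132796-27133042), and for a pair with no exact octamer, H2BC13 and H2AC13 (chr6:27807930-27808172). All are the plus strand of hg38, and capitals mark the octamer ATTTGCAT, the CCAAT box and the TATA word TATAAA on either strand, which may overlap:
H2BC21/H2AC20: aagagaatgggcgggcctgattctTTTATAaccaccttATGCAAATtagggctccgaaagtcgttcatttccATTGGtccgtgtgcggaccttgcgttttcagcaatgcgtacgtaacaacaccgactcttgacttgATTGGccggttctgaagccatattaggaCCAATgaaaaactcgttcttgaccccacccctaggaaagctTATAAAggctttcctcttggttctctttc
H2BC11/H2AC11: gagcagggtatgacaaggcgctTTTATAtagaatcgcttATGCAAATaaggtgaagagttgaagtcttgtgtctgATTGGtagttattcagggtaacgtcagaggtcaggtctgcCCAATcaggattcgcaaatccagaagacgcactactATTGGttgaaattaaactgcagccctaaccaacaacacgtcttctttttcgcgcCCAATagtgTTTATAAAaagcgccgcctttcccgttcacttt
H2BC13/H2AC13: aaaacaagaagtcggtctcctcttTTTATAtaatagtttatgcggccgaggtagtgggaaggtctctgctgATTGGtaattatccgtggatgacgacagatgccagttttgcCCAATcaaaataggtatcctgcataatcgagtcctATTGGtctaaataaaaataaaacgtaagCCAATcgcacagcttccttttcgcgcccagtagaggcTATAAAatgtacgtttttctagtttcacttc

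The H1 and H4 promoters carry other words. The 120 bases before the start site are shown for H1-4, the most accessible H1 gene (chr6:26156209-26156328, plus strand), and for H1-6, the testis linker histone gene, which had no promoter peak (chr6:26108136-26108255, minus strand), with the H1 box (AAACACA), the CCAAT box and the TATA word in capitals. They are also shown for H4C11 (chr6:27823972-27824091, plus strand), the H4 promoter nearest to the threshold of the test, and for the near-identical copies H4C14 (chr1:149832537-149832656, plus strand) and H4C15 (chr1:149861160-149861279, minus strand), with the H4 word (GGTCCG), the CCAAT box and the TATA word in capitals. H4C14 and H4C15 matched at 120 of 120 bases:
H1-4: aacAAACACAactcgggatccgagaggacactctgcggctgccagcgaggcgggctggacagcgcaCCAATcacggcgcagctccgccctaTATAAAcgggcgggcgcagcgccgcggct
H1-6: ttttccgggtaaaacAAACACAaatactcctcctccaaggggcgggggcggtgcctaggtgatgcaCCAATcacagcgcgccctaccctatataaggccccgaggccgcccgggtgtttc
H4C11: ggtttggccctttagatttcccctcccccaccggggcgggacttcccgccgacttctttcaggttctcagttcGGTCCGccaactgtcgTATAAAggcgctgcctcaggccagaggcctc
H4C14: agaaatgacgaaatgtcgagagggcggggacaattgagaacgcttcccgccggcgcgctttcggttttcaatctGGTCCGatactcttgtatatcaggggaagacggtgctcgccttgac
H4C15: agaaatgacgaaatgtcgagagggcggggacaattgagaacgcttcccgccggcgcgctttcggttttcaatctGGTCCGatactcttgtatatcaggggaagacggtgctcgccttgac

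RefSeq promoters (GRCh38.p14, 250 bases before to 50 after the start site) matched 59 of the 64 genes by symbol and were searched on both strands beside all 35116 RefSeq promoters (unmatched: H2AC12, H3C11, H3C12, H4C1 and H4C3). The octamer stood in 10 of 14 H2A and 13 of 16 H2B promoters, in none of the H1, H3 or H4 promoters and in 1.77% of all promoters. In the head-to-head pairs the searched stretches overlap, so the same word can count for both genes, as the octamer does at H2BC21 and H2AC20. CCAAT stood in every H1, H2A, H2B and H3 promoter searched, in 3 of 12 H4 promoters and in 34.6% of all. GGTCCG stood in 11 of 12 H4 promoters and in 11.3% of all, and AAACACA in 6 of 6 H1 promoters and in 5.64% of all. TATAAA stood in 39 of the 59 histone promoters and in 11.5% of all. A word match is a description and shows no bound factor.

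A stem-loop with a perfect stem of 6 base pairs and a loop of 4 bases was found within 150 bases of the transcript end in 61 of 64 genes, all except H2BC21, H2AC11 and H2AC15. The most frequent forms are shown with the stem bases in capitals. The first stood in 35 genes of the H1, H2A, H2B and H3 families, the second in 9 genes outside the H4 family and the third in 9 H4 genes:
stem-loop 1: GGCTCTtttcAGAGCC
stem-loop 2: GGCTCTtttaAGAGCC
stem-loop 3: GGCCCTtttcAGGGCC

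Histone promoter peaks were more accessible than most peaks within 3 kb of a start site. The atlas placed a peak over the start region (250 bases before to 50 after the start site) of 57 of the 64 genes, through 47 promoter peaks: 37 belonged to 1 gene and 10 to a head-to-head pair. Every histone peak tested was 502 bases wide, so their normalised read counts can be compared per length. The promoter peaks had a median empty vector level of 813 normalised reads, against 169.8 for all 46300 peaks within 3 kb of a start site. This puts it at percentile 83.7 of those peaks, and 40 of the 47 lay above that median. The 46300 also hold peaks beside promoters, and the histone peaks of that kind had a median of 97.8. Start-site peaks of histone expression regulators and of replication-independent histone genes, described below, had higher medians than the histone promoters, 1172 and 1128. These were picked by another rule, as the strongest tested peak centred within 500 bases of the start site. The marker genes and HMGB2 followed that rule too. Single-gene peaks were centred 127 bases downstream of the start site in the median and lay downstream of it in 32 of 37 cases, so that a median of 309 of their 502 bases were coding sequence. The 7 genes with no promoter peak were H1-6, H2AC21, H3C6, H3C14, H3C15, H4C1 and H4C7, and the nearest peak centre lay between 1107 and 3352 bases from their start sites.

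The 5 most accessible promoters all belonged to H2B genes, 4 of them in pairs with H2A. H2BC21/H2AC20 held 2226, 2438 and 2629 normalised reads in the empty vector libraries and 2350.4, 2231 and 2175 in the HMGB2OE libraries. H2BC11/H2AC11 held 1405, 1510.0 and 1642 against 1482, 1438 and 1454. H2BC12/H2AC12 held 1358, 1326 and 1354 against 1326, 1137 and 1197. In each of these pairs the libraries of both groups overlapped. H2BC18, a single-gene promoter on chromosome 1, held 1263, 1362 and 1396 against 1297, 1210.2 and 1147. H2BC4/H2AC6 held 1112, 1306 and 1258 against 1223, 1199 and 1173. Here too the groups overlapped, and no difference among these 5 exceeded −0.14 on the log2 scale in size (adjusted p between 0.317 and 0.858, edgeR quasi-likelihood test with Benjamini–Hochberg adjustment over 150117 peaks).

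The 5 lowest promoter peaks were weak. H2AC18 held 20.8, 26.7 and 28.1 normalised reads in empty vector and 29.8, 32.5 and 25.9 in HMGB2OE. H3C11 held 48.6, 25.8 and 38.6 against 28.9, 20.02 and 36.0. H4C15 held 48.6, 43.9 and 65.5 against 60.4, 55.9 and 49.5. The groups overlapped at all 3. H2BC6 held 66.7, 59.4 and 45.6 against 45.9, 53.4 and 54.0, and H4C14 held 66.7, 63.7 and 48.0 against 53.6, 36.7 and 50.7. At these levels the 95% intervals of the log2 fold change reached from −1.08 to 0.28 at H3C11 and from −0.47 to 0.90 at H2AC18. At these peaks, and at H2BC6 and H4C14, a change of 1.5-fold could not be told from none. At H4C15 the interval, −0.40 to 0.57, lay just inside 1.5-fold.

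**Figure D1:**
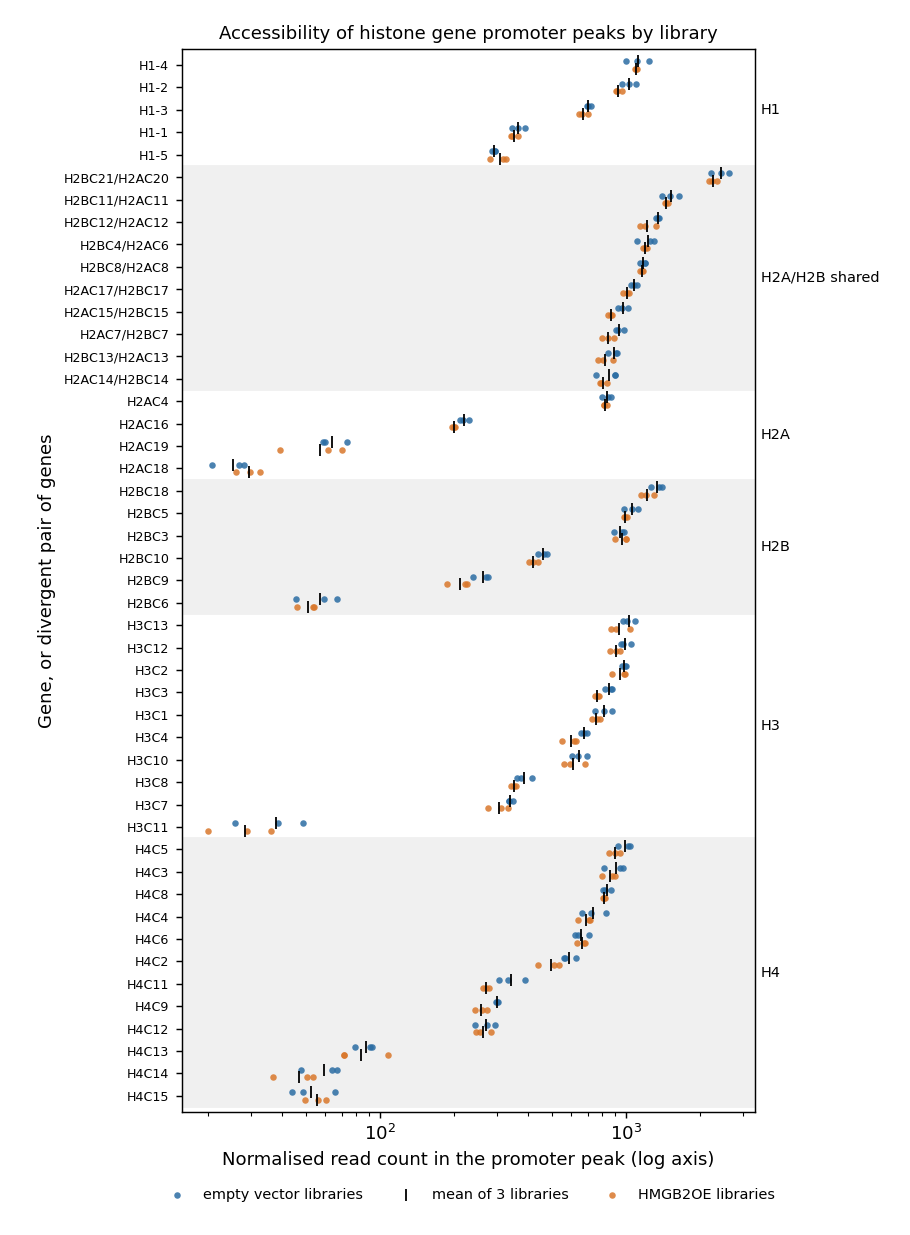
Normalised read count (log axis) of each of the 47 histone promoter peaks in the 3 empty vector libraries (blue) and the 3 HMGB2OE libraries (orange), ordered within families, with a black tick at each group mean. The families overlap widely, H2BC21/H2AC20 stands highest at 2431 in empty vector, and 7 promoters lie below 100.

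Some of the lowest values lie at sequence copies. A read that matches the genome more than once cannot be placed uniquely, and how such reads were handled is not given in the sources used here. A repeated 31-base word can still lie in a longer read that fits a single place. Every 31-base word of the promoter peaks of H2AC18, H2AC19, H4C14 and H4C15, which lie in the duplicated stretch of the chromosome 1 cluster, occurred elsewhere in hg38, and their empty vector means lay between 25.2 and 64.0 normalised reads. The shares were 78.6% at H4C12, 74.6% at H2BC18, 73.7% at H3C13, 73.1% at H4C11, 60.8% at H2BC13/H2AC13 and 51.3% at H2AC14/H2BC14, with means between 269.99 and 1340.4. The part of repeated sequence in the low counts was not tested, and levels of these genes are uncertain. H3C11 (3.18%), H4C13 (1.69%) and H2BC6 (30.7%) were also low, at 37.7, 87.8 and 57.2 normalised reads, with little repeated sequence in the first 2.

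**Figure D2:**
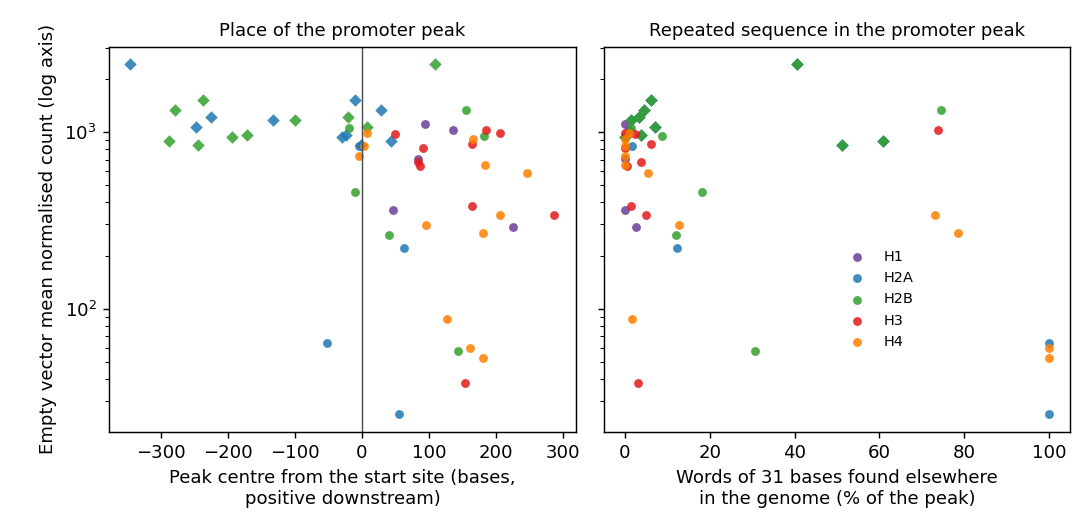
Empty vector mean of the promoter peak (log axis) of 57 histone genes against the distance of the peak centre from the start site (left) and against the share of the peak made of repeated 31-base words (right), coloured by family, with diamonds for genes of a shared pair. Most single-gene peaks sit downstream of the start site, and the 4 peaks with every word repeated lie at the bottom right.

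The question of the design is whether HMGB2OE changed these levels, and no histone peak passed the test. With a call defined as a change of 1.5-fold or more at an adjusted p under 0.05, 0 of 154 histone peaks were called higher, where 1.87% of all tested peaks were, and 0 were called lower, where 1.44% were. Without the fold limit the counts were still 0 and 0, against 3.44% higher and 3.03% lower over all peaks. Some alternative settings, however, gave 1 to 11 of the histone peaks lower at an adjusted p under 0.05. The shares over all peaks given here are those of the main fit only. At an unadjusted p under 0.05, 1 histone peak was higher (all peaks 10.7%) and 22 were lower (all peaks 10.2%), or 14.3% of the histone peaks. DESeq2 also called 0, with 0 higher and 20 lower at an unadjusted p under 0.05. All 3 HMGB2OE libraries lay above all 3 empty vector libraries at 2 histone peaks (all peaks 12.6%) and below them at 36 (all peaks 12.5%), or 23.4%. Other tested peaks of the same stretches, described further on, lay below in 29.9% of 117 cases on chromosome 6 and 35.3% of 17 on chromosome 1.

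The differences were small and mostly of 1 sign. The median log2 fold change was −0.12 over the 154 histone peaks, with 122 below 0 (79.2%), and −0.11 over the 47 promoter peaks, with 42 below 0 (89.4%). All tested peaks had a median of −0.005, with 50.8% below 0, and all peaks within 3 kb of a start site one of −0.04, with 57.1% below 0. Start-site peaks of 2 gene lists described further on lay below 0 in 22 of 24 cases (histone expression regulators) and 9 of 11 (replication-independent histone genes). Other peaks within 3 kb of a start site in the same stretches did so in 78.8% of 33 cases on chromosome 6 and 85.7% of 7 on chromosome 1. The 95% interval lay inside 1.5-fold in both directions at 42 of the 47 promoter peaks, including all 40 above 200 normalised reads and all 10 shared pairs. Differences of that size or more are therefore outside the intervals of these promoters, one peak at a time.

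Summed over the histone peaks, the normalised reads were 53134, 55482 and 54204 in the empty vector libraries and 50566, 50799 and 49105 in the HMGB2OE libraries. The groups did not overlap, and the difference of the means was −7.58%. For the promoter peaks alone the sums were 32430.5, 34417 and 34505 against 31940.3, 31812 and 30954, a difference of −6.56%. Again every HMGB2OE library was below every empty vector library, the nearest of them by less than the spread within the empty vector group. These sums were given no test, since the members were chosen with results of these data known.

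**Figure D3:**
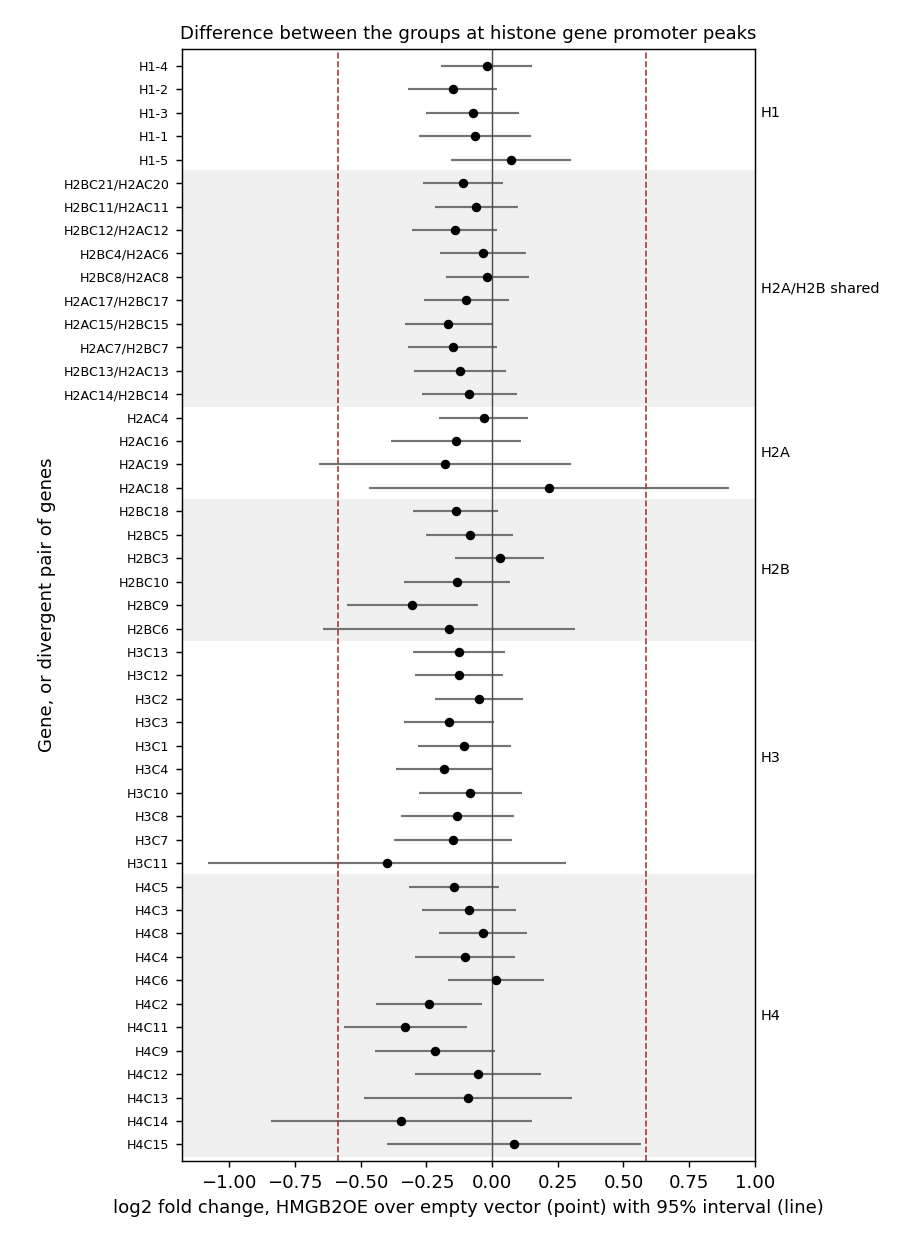
log2 fold change of HMGB2OE over empty vector (points) with its 95% interval (lines) at each of the 47 histone promoter peaks, ordered as in the plot of levels; dashed lines mark 1.5-fold in either direction. Of the points, 42 lie left of 0, and all lie between −0.40 and 0.22, with the widest intervals at the low peaks.

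By family, the linker histones had the median nearest to 0. H1-4 held 1001, 1106 and 1245 normalised reads against 1110.2, 1103 and 1093, a log2 fold change of −0.02 (95% interval −0.19 to 0.15). H1-2 held 962, 1103 and 1033 against 911, 965 and 921 (−0.15, −0.32 to 0.02), and H1-3 held 719, 699 and 695 against 643, 662 and 704 (−0.07, −0.25 to 0.10). H1-1 held 343, 363 and 387 against 340.0, 344 and 364 (−0.06, −0.28 to 0.15). H1-5 was the only H1 promoter with a value above 0, with 286, 294 and 295 against 279.7, 316 and 326 (0.07, −0.16 to 0.30). At all 5 the groups overlapped, the adjusted p lay between 0.306 and 0.922, and the median was −0.06.

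Of the nucleosome core families, H2A promoters had a median log2 fold change of −0.10 over 14 peaks, H2B −0.12 over 16, H3 −0.13 over 10 and H4 −0.10 over 12, with the shared pairs counted under both H2A and H2B. All 10 H3 promoters lay below 0, from −0.40 at H3C11 to −0.05 at H3C2. At 5 of them the HMGB2OE libraries were all below the empty vector libraries, against 12.5% of all tested peaks and 14.6% of all peaks within 3 kb of a start site. The share was 35.0% of the 40 histone promoters on chromosome 6. It was 33.3% of the 33 other peaks within 3 kb of a start site in that stretch. The 10 shared pairs lay between −0.17 and −0.02. H2AC15/H2BC15 had the largest of these in size, with 933, 959 and 1022 against 847, 881 and 870.2 and no overlap (−0.17, adjusted p = 0.242). H2AC7/H2BC7 held 983, 932 and 908 against 845, 897 and 798 (−0.15, adjusted p = 0.312), and H2AC17/H2BC17 held 1105, 1049 and 1080.1 against 1034, 1012 and 973 (−0.10, adjusted p = 0.519), both also without overlap. H2BC8/H2AC8, with 1137, 1196 and 1191 against 1142, 1165 and 1176, differed by −0.02. H2BC13/H2AC13 and H2AC14/H2BC14 differed by −0.12 and −0.09. No family stood apart by a test of its own, because families were compared only by these counts and medians.

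An unadjusted p under 0.05 was reached by 3 of the 47 promoter peaks, all lower and named here after their values were seen. That is 6.38%, below the 10.2% of all tested peaks and the 10.5% of all peaks within 3 kb of a start site that were lower at this level. H4C11 held 388, 330.4 and 305 normalised reads in empty vector and 279, 263 and 270.2 in HMGB2OE, a log2 fold change of −0.33 (SE 0.114, adjusted p = 0.0806). H2BC9 held 239, 271 and 275 against 226, 223 and 187 (−0.30, SE 0.122, adjusted p = 0.139). H4C2 held 560.1, 628 and 565 against 534, 512 and 438 (−0.24, SE 0.0983, adjusted p = 0.147). At each the groups did not overlap, and none passed after adjustment. H4C12, whose promoter peak also has mostly repeated words, differed by −0.05 (adjusted p = 0.85), and the copies H4C14 and H4C15 by −0.34 (adjusted p = 0.446) and 0.08 (adjusted p = 0.887). On chromosome 1, H2AC18 differed by 0.22, H2AC19 by −0.18, H2BC18 by −0.14 and H3C13 by −0.12, with adjusted p of 0.769, 0.719, 0.33 and 0.435.

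Outside the promoters, 107 tested peaks had a median log2 fold change of −0.12, 39 of them within 3 kb of a start site (−0.10) and 68 farther away (−0.16). Their empty vector median was 98.2 normalised reads, well under that of the promoters. The smallest adjusted p of any histone peak, 0.055, belonged to a peak 1559 bases from the start site of H2AC18 (chr1:149844059-149844560), with 297, 281 and 218 normalised reads against 204, 192 and 208 and a log2 fold change of −0.40. It was named after its value was seen, and the groups did not overlap.

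The 5 largest differences below 0 were all at intergenic peaks on chromosome 6. The peak at chr6:27096908-27097409, 35637 bases from the start site of H2BC11, held 97.3, 69.7 and 56.2 against 56.1, 43.4 and 36.0 (−0.69, adjusted p = 0.0829). The peak at chr6:27162068-27162569, 15212 bases from H2AC12, held 93.1, 54.2 and 53.8 against 45.1, 34.2 and 48.4 (−0.64, adjusted p = 0.137). The peak at chr6:27836152-27836653, 1973 bases from H2AC15, held 79.2, 70.6 and 63.2 against 43.4, 51.7 and 43.9 (−0.61, adjusted p = 0.101). At these 3 the groups did not overlap, although at the first 2 the empty vector libraries spread over a wider range than the difference of the means. The other two, near H1-2 (chr6:26064409-26064910) and H2BC13 (chr6:27668464-27668965), differed by −0.56 and −0.42.

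The 5 largest differences above 0 were at weak peaks. The peak at chr1:149855718-149856219, inside H4C15, held 13.9, 4.3 and 5.9 against 8.5, 11.7 and 15.8 (0.64, adjusted p = 0.601), and all of its words were repeated. The peak at chr6:26999638-27000139, assigned to H2BC11 from 132907 bases away, held 34.7, 30.97 and 21.1 against 45.9, 43.4 and 43.9 (0.62, adjusted p = 0.222) with no overlap, and 91.9% of its words were repeated. The remaining peaks of this kind, near H1-2, H4C2 and H2AC19 (chr6:26071039-26071540, chr6:26029208-26029709 and chr1:149847512-149848013), differed by 0.32, 0.28 and 0.28, each with overlapping groups.

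The peaks that share these regions with the histone genes but belong to other genes lay at least as far below 0. On chromosome 6, 117 other tested peaks of the same stretch had a median log2 fold change of −0.21, with 93 below 0, against −0.12 for the 136 histone peaks, and 2 passed an adjusted p under 0.05, both lower, where 3.03% of all tested peaks did. On chromosome 1, 17 other peaks had a median of −0.15, against −0.06 for the 18 histone peaks, and 1 of the 17 passed an adjusted p under 0.05, also lower. All tested peaks of chromosomes 6 and 1 had medians of −0.02 and −0.01. When each histone peak was set against the median of the other peaks of its own stretch, of any kind, the histone median became 0.083. The promoter median became 0.084, so the sign of the difference depends on the reference. In the chromosome 6 stretch, the 33 other peaks within 3 kb of a start site had a median of −0.122, against −0.104 for the 40 histone promoters. On chromosome 1 the medians were −0.145 over 7 such peaks and −0.124 over 7 histone promoters. Why these stretches lay below 0 as a whole was not tested.

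**Figure D4:**
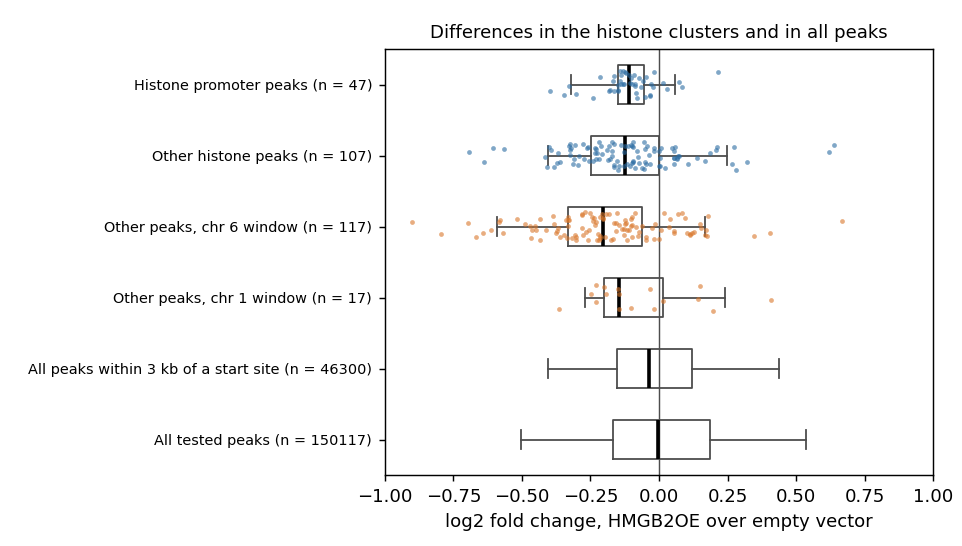
log2 fold change of HMGB2OE over empty vector in 6 sets of tested peaks. Boxes span the quartiles with the median as a thick line, whiskers percentiles 5 to 95, and points single peaks in the smaller sets. The histone promoter median is −0.11, the other peaks of the chromosome 6 stretch have one of −0.21, and all tested peaks −0.005.

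Genes that act on histone transcription, histone messages or histone proteins were described from a fixed list of 27, called histone expression regulators here. Of these, 24 had a promoter peak, here one centred within 500 bases of the start site. Their empty vector means ran from 423 to 5482 normalised reads. Of the 24, 22 differed by less than 0, with a median of −0.10, where 57.1% of all peaks within 3 kb of a start site did. HINFP held 2163 ± 29.3 against 2015 ± 48.1 (SD, n = 3; −0.10, adjusted p = 0.432), NPAT 1956 ± 109 against 1828 ± 40.6 (−0.10, adjusted p = 0.478) and SLBP 1555 ± 87.1 against 1411 ± 35.1 (−0.14, adjusted p = 0.291). The exception past the adjusted threshold was SRRT, a cap-binding partner of RNA processing, at 801 ± 72.4 against 636 ± 18.4 (−0.33, adjusted p = 0.0229), short of 1.5-fold.

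Over all 125 tested peaks of the list, 1 was called higher and 3 lower (over all peaks, 1.87% higher and 1.44% lower). CPSF3, the endonuclease that cuts histone messages, had a gene body peak with 434, 589 and 436 normalised reads against 344, 323 and 311 (−0.59, adjusted p = 0.0020). NASP, a histone chaperone, had a gene body peak with 113, 103 and 106 against 73.1, 75.9 and 54.0 (−0.65, adjusted p = 0.0291). The other calls were distal peaks assigned to TUT7, an enzyme that adds uridines to histone messages, of which one was lower (−1.21, adjusted p = 0.0367) and the other higher (0.71, adjusted p = 0.036). DESeq2 called none of these 4, and leaving out HMGB2OE replicate 3 left 0 called in either direction.

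Replication-independent histone genes, which are expressed throughout the cell cycle, were described the same way. Of 12, 11 had a promoter peak, with a median log2 fold change of −0.11 and 9 below 0. Of all peaks within 3 kb of a start site, 57.1% lay below 0. H2AZ2 held 2409 ± 65.1 against 2206 ± 23.0 normalised reads (SD, n = 3; −0.13, adjusted p = 0.302), and H3-3A, a gene of the replacement form of H3, 1645 ± 45.2 against 1476 ± 104 (−0.15, adjusted p = 0.244). H2AJ had the largest difference in size, 258 ± 4.37 against 199 ± 13.7 (−0.38, adjusted p = 0.0528). None of their 81 tested peaks was called (over all peaks, 1.87% higher and 1.44% lower). Without the fold limit, a gene body peak of MACROH2A1 was higher (0.51, adjusted p = 0.0038) and an intergenic peak assigned to H2AZ1 lower (−0.51, adjusted p = 0.0387). Over all tested peaks, 3.44% were higher and 3.03% lower at that threshold.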

How the data were processed

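ATAC-seq counts of 6 A375 libraries (3 empty vector, 3 HMGB2OE, grouped by the genotype in the labels) were used. Per the paper and the labels, the authors used Trim Galore 0.6.7 and Cutadapt 4.0 for trimming, Bowtie 2 for alignment to hg38 and Picard for duplicates. MACS2 peaks, found with public melanocyte data as control, were joined into 1 atlas outside blacklisted regions, and the deposited values are raw featureCounts read counts per peak, with no normalization. How reads with several alignments were treated and whether Tn5 cuts were shifted are not given in the sources used here.

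All 152800 peaks entered edgeR 4.0.16 (R 4.3.3; TMM, filterByExpr, quasi-likelihood F test, no covariate), and Benjamini–Hochberg adjustment ran over the 150117 peaks kept. A called peak differed by 1.5-fold or more at an adjusted p under 0.05. Standard errors are the log2 fold change over the square root of F, with 95% intervals from the t distribution of the fit. Normalised reads are counts per effective library size (library size times TMM factor), put back on the scale of the mean library. Alternatives were DESeq2 1.42.0, other scalings, GC offsets, other count filters, a replicate block, each library left out, regional centring and another peak assignment. On simulated counts with 200 changed peaks, set at a log2 fold change of 1.5 in size, the fit recovered 100%. There were 12 false calls among 150126 tested. The histone peaks differed by less, from −0.69 to 0.64 on the log2 scale, and recovery at such sizes was not tested.

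Named peaks were the promoter peaks of H1 genes, the 5 highest and 5 lowest promoters, shared and near-identical promoters, and the 5 largest differences in each direction. Members, lists and this rule were chosen with earlier results of these data known. The genes H2AC1 and H2BC1 lie outside the clusters as defined. A result among the replication-independent genes is not reported here.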

Additional observations from a re-analysis of the deposited data

How the results depend on the processing

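Of the histone peaks, 0 were called higher under every alternative run and 0 called lower under most of them. 1 peak was called lower with the replicate block (an edgeR fit with the replicate number as a term) and 1 with the replicate block and offsets for GC content, in both cases an intergenic peak near H2BC11 (chr6:27096908-27097409) (log2 fold changes of −0.71 and −0.76). Leaving out 1 library at a time gave 0 to 1 called lower, and the 1 call, the same peak, appeared without empty vector replicate 3 (−0.85). Peaks at an adjusted p under 0.05 numbered 4 with the replicate block, 11 with the block and GC offsets (H4C11 and H4C2 among them), 4 without empty vector replicate 3, 1 with the loess trend (adjusted p = 0.041) and 1 with each peak given to the nearest start site (adjusted p = 0.0408). The share of all tested peaks under 0.05 in each refit is not given here, so these counts have no general rate beside them. Libraries with the same number had deviations that correlated by −0.0886, 0.185 and 0.125, and those with different numbers by −0.266 to 0.152. These values cannot tell whether libraries of the same number were prepared together. The main fit did not treat them as pairs. The median over histone peaks lay between −0.133 and −0.104 with 1 library left out. Centring on all other peaks of the same stretch, of any kind, turned it to 0.083 and the promoter median to 0.084. The log2 ratio of the summed reads (−0.114) became 0.085. That ratio was −0.149 with GC offsets, −0.149 with the block and GC offsets and −0.081 with a loess trend on mean count removed. For the regulator list, called peaks numbered 0 to 2 higher and 0 to 3 lower over the alternatives (0 and 0 by DESeq2 and without HMGB2OE replicate 3), and for the replication-independent genes 0 to 1 in each direction, the calls appearing without empty vector replicate 1 (1 lower) or 2 (1 higher). The causes were not tested.

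Of 57 promoter and extreme peaks followed, 39 changed sign under some alternative. Regional centring moves every histone value of a stretch by the same amount. For most of the 39 it was the only setting that changed the sign. Regional centring gave log2 fold changes of 0.00733 at H2BC18, 0.0213 at H3C13, 0.0345 at H2BC21/H2AC20, 0.14 at H1-1, 0.0562 at H1-2, 0.17 at H2BC4/H2AC6, 0.19 at H1-4, 0.0434 at H2BC6, 0.0559 at H2AC7/H2BC7, 0.19 at H2BC8/H2AC8, 0.13 at H1-3, 0.15 at H2BC11/H2AC11, 0.0647 at H2BC12/H2AC12, 0.0839 at H2BC13/H2AC13, 0.12 at H2AC14/H2BC14, 0.15 at H4C12, 0.0399 at H2AC15/H2BC15 and 0.11 at H2AC17/H2BC17. With library size alone the values were 0.000995 at H1-4 and 0.00323 at H2BC8/H2AC8, and with the loess trend 0.0235 at H2BC4/H2AC6, 0.036 at H1-4, 0.0386 at H2BC8/H2AC8 and 0.000172 at H2BC11/H2AC11. With 1 library left out the value ran from −0.34 to 0.037 at H2AC19, from −0.0498 to 0.27 at H4C15, from −0.0955 to 0.0154 at H2BC4/H2AC6, from −0.0889 to 0.0608 at H1-4 and from −0.11 to 0.0104 at H4C12. Promoters under 100 normalised reads are limited by their counts.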
